A study of Mus musculus with 6 samples.

Results

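The genes described are 39 genes of cholesterol and fatty acid synthesis, chosen by symbol from 23337 gene rows, and all 39 had enough counts to be tested. They were ordered by pathway step into 7 genes of the mevalonate steps, 10 of the sterol steps, 7 that regulate SREBP or move sterol, 6 that build fatty acids and 9 that lengthen or desaturate them. Related genes outside the 39 are described after them, and some other enzymes of these pathways were not analysed here. The RNA came from nuclei of mouse neural precursor cells (NPCs), the dividing cells that give rise to neurons and glia. The cells were taken from the dorsal forebrain at E13.5 and grown on Matrigel with B27, N2, heparin, and EGF and basic FGF at 20 ng/ml each. They were collected at passage 6 to 7 near 80% confluency. There were 3 lines labelled Fmr1 WT (lines 3, 8 and 19) and 3 labelled Fmr1 KO (lines 3, 13 and 16), and no drug or other treatment separated them. Fmr1 encodes FMRP, the RNA-binding protein lost in fragile X syndrome, and the comparison asks how nuclear RNA differs between the genotypes. The sources used here do not give the strain, the form of the knockout allele or whether lines came from separate embryos. P-values therefore measure the spread between these lines. Per the labels, all lines were grown in the same medium and matched for density and passage.

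Cholesterol is built from acetyl-CoA through mevalonate and isoprenoid diphosphates to squalene, which is closed into lanosterol and then trimmed and reduced in many steps. Fatty acids are built from the same acetyl-CoA by acetyl-CoA carboxylase and fatty acid synthase, then lengthened by elongases and desaturated. Both sets of genes are classic targets of the SREBP transcription factors. SREBP precursors sit in the endoplasmic reticulum with the escort protein SCAP, and INSIG proteins hold them there while sterol is plentiful. Neural cells make most of their own cholesterol because lipoproteins of the blood do not cross into the brain.

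Total counts ran from 18702738 to 26789522 per library. Fmr1 itself went against a label: it was at 223, 269.7 and 273 CPM (counts on a common library scale, set with trimmed-mean factors known as TMM) in WT lines 3, 8 and 19 and at 371, 188 and 153 CPM in the lines labelled KO 3, 13 and 16. The library labelled KO line 3 was therefore above every WT line, and the log2 fold change was -0.10 (SE 0.29, edgeR adjusted p = 0.795). An allele that still makes RNA would not be seen as a loss of counts, so this measure checks the labels only in part. WT line 19 and KO line 3 stood apart from their own groups, by a chi-square of their counts divided by its degrees of freedom: 61.3 and 62.8 for the former and 72.6 and 91.5 for the latter, against 10.8 and 16.4 for the remaining pair of each genotype. Marker sums also moved with the genotype label. The 8 astrocyte markers summed to 521 to 848 CPM in the WT lines and 137 to 184 CPM in the lines labelled KO, and 6 of 8 were called lower. The 10 oligodendrocyte lineage markers summed to 727 to 809 and 1136 to 1346 CPM, with 4 of 8 tested called higher and 1 lower. Olig1 and Olig2 made up most of these sums, and Mbp was at 0 in every WT line. Of the 7 neuron markers, 3 of 6 tested were called higher, with sums of 792 to 1000.3 and 1080.4 to 1658 CPM. Nearly all of each sum was Map2, at 778 to 979 and 1048 to 1602 CPM. Neural precursor markers, with 1 of 10 called in each direction, summed to 6475 to 7099.8 and 4819 to 6134 CPM, and microglial markers to at most 0.542 CPM in any line. Over all genes tested, 21.8% were called higher and 20.4% lower. The part of these markers in the results that follow was not tested, and in bulk RNA fewer cells of a type and less RNA per cell cannot be told apart.

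Throughout, a level is CPM on this TMM scale, given for WT lines 3, 8 and 19 and then for KO lines 3, 13 and 16. A gene was called when its edgeR quasi-likelihood p, adjusted by Benjamini-Hochberg over all 13925 genes tested, was below 0.05. Positive log2 fold changes mean a higher level in the lines labelled KO.

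Most of the 39 genes were higher in the lines labelled KO. Of all 39, 25 were called higher and 4 lower, 74.4% in all, beside 42.3% of all genes tested. Higher calls made up 64.1% of the 39 and 21.8% of all genes, and lower calls 10.3% and 20.4%. Their median log2 fold change was 0.53, against 0.01 over all genes. The levels of the 2 genotypes did not overlap for 33 of 39 genes, which is 84.6%, while 54.3% of all genes tested had no overlap. The lines labelled KO lay above WT for 29 of the 39 and below for 4, beside 28.6% and 25.7% of all genes. The 4 genes called lower were Abca1, Insig2, Me1 and Elovl5, which belong to sterol export, SREBP retention, NADPH supply and elongation. Genes called higher by at least 2-fold numbered 6 of the 39, namely Lss, Acat2, Fasn, Fdps, Mvk and Acacb, a size reached by 5.72% of all genes. Abca1 and Insig2 were called lower by at least 2-fold, as were 8.43% of all genes. Leaving out single lines moved the count called from 23 of 39, without WT line 8, to 31, without KO line 3. Without both WT line 19 and KO line 3 it was 32, with Idi1 then called lower. The share of all genes called moved too, to 31.5%, 53.7% and 54.2% under the same settings.

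**Figure D1:**
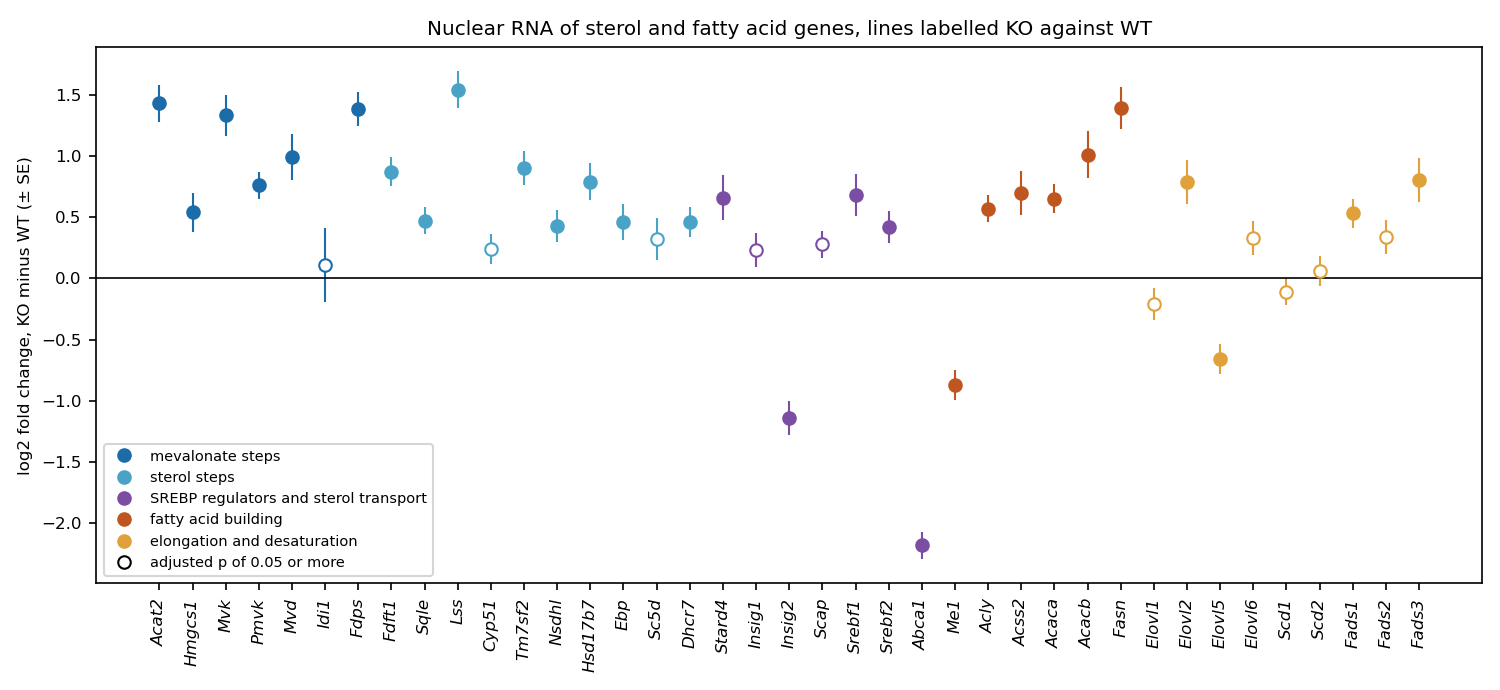
Log2 fold change with its standard error (y axis) for each of the 39 genes, in pathway order (x axis) and coloured by class, with open circles for genes at an adjusted p of 0.05 or more. All 17 genes of sterol synthesis lie above 0, while the deepest point, Abca1 at -2.18, is among the regulators and sterol transporters.

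The stretches before the transcription start were compared because so many of these genes differed in one direction. RefSeq (GRCm38.p6) gave promoter windows for 32 of the 39 genes. The 250 bases before the start are shown, 5′ to 3′ on the gene's own strand, for an early pair of the mevalonate steps (Hmgcs1 and Mvk), the gene with the highest fold change (Lss), fatty acid synthase (Fasn), and the gene with the lowest (Abca1). Capitals mark the SREBP element TCACNCCAC, the CCAAT box or its reverse complement ATTGG, and the E-box CACGTG.
Hmgcs1, chr13:119690101-119690350, plus strand: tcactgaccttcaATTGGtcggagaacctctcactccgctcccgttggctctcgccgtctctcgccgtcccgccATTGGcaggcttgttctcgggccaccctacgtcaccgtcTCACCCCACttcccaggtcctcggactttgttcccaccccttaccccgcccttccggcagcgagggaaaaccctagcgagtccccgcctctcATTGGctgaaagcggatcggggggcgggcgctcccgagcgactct
Mvk, chr5:114444019-114444268, plus strand: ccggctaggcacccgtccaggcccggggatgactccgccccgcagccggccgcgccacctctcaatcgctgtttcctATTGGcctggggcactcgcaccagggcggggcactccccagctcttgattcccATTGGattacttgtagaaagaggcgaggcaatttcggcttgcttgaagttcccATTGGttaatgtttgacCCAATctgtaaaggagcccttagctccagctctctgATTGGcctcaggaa
Lss, chr10:76531355-76531604, plus strand: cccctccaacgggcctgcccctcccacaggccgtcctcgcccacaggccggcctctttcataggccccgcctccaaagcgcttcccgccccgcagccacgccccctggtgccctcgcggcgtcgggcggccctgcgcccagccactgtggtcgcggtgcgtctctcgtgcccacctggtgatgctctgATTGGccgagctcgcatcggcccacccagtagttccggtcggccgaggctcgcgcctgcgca
Fasn, chr11:120824548-120824797, minus strand: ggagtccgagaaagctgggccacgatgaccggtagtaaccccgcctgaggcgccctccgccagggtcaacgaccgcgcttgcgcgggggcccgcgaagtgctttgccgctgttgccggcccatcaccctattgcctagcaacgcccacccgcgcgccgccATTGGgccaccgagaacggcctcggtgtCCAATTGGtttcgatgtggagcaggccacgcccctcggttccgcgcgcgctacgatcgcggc
Abca1, chr4:53159896-53160145, minus strand: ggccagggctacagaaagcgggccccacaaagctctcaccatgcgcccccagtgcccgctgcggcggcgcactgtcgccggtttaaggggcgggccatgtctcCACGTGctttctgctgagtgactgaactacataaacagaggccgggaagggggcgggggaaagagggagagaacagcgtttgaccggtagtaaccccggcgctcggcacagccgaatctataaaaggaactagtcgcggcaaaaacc

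Mvk carried 5 CCAAT boxes in this stretch and Hmgcs1 carried 3. Hmgcs1 also held the only exact match to TCACNCCAC among the 32 genes, TCACCCCAC, starting 137 bases before the start. Fasn had 3 CCAAT boxes, of which the 2 nearest the start overlap, Lss had 1 and Abca1 had 0 with a single E-box. Searched on both strands over the full windows, which run from 250 bases before the start to 50 past it, the CCAAT box was in 25 of 32 genes (78.1%), and in 41.1% of the 27025 genes with a window. Among genes that were also tested for expression the share was 43.2%. By class it was in 13 of 14 sterol synthesis genes, 4 of 6 regulators and transporters and 8 of 12 fatty acid genes. The sterol synthesis gene without it was Acat2, which had the highest log2 fold change of the mevalonate steps (1.43). Of the motifs searched, Acat2 held only a GC box. The GC box GGGCGG was in 26 of 32 genes (81.2%), beside 38.2% of all genes and 68.9% of tested ones. The E-box was in 7 of 32 (21.9%), beside 8.09% and 11.6%, and the SREBP element in 1 of 32 (3.12%), beside 1.44% and 1.48%. The DR4 motif, a direct repeat read by liver X receptors, was in 0 of 32 genes and in 0.0148% of all genes. Some genes had several windows, and per window the CCAAT box was in 60.5% of 43 member windows and 37.4% of all windows. A match in letters does not show that a factor binds. A lack of one speaks only for these windows and these exact letters, since looser forms of the motifs were not searched.

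The mevalonate steps rose together: 6 of 7 genes were called higher (85.7%, beside 21.8% of all genes) and 0 lower. Their median log2 fold change was 0.99. Summed over the 7 genes, the level was 559.5, 548 and 492 CPM in the WT lines and 1013, 727 and 943 CPM in the lines labelled KO, a ratio of means of 1.68. Acat2, the cytosolic thiolase that joins 2 acetyl-CoA units, was at 32.0, 27.3 and 26.7 CPM and then at 87.5, 62.3 and 81.8 CPM (log2 fold change 1.43, SE 0.15, edgeR adjusted p = 1.61e-04). Every line labelled KO was above every WT line. Reads of Acat2 may be shared, since 39.1% of its 50-base stretches also occur in its neighbour and near copy Acat3, which itself was at 2.03 to 3.74 CPM in every line and showed no call. Hmgcs1, which makes HMG-CoA, was at 390.4, 407 and 344 CPM and at 675, 432 and 558 CPM (log2 fold change 0.54, SE 0.16, edgeR adjusted p = 0.0246). KO line 13 lay close to WT line 8, and the call was lost without WT line 8 (edgeR adjusted p = 0.0518) or without WT line 19 (edgeR adjusted p = 0.0855). With WT line 19 and KO line 3 both left out the value was 0.31 (edgeR adjusted p = 0.0397).

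The 3 steps that turn mevalonate into isopentenyl diphosphate did not overlap between the genotypes. Mvk, the first kinase, was at 18.4, 12.5 and 16.6 CPM and at 38.1, 35.0 and 46.2 CPM (log2 fold change 1.33, SE 0.17, edgeR adjusted p = 4.59e-04). Pmvk, the second kinase, was at 31.5, 28.2 and 29.2 CPM and at 49.5, 45.4 and 55.3 CPM, 0.76 on the log2 scale (SE 0.11, edgeR adjusted p = 0.00103). Mvd, the decarboxylase that follows, was at 23.6, 17.9 and 24.6 CPM and at 37.9, 37.5 and 56.2 CPM (log2 fold change 0.99, SE 0.19, edgeR adjusted p = 0.00329). KO line 16 was the highest line for all 3 genes. Fdps, which condenses the units into farnesyl diphosphate, went from 49.8, 43.1 and 39.5 CPM to 104, 106 and 135 CPM (log2 fold change 1.38, SE 0.14, edgeR adjusted p = 1.50e-04). Copies of its sequence elsewhere cover 26.2% of its 50-base stretches.

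Idi1, the isomerase between Mvd and Fdps, was the exception. It was at 13.8, 12.6 and 10.6 CPM in the WT lines and at 21.2, 8.88 and 10.2 CPM in the lines labelled KO (log2 fold change 0.11, SE 0.30, edgeR adjusted p = 0.794). KO line 3 held the highest level of all 6 lines and KO lines 13 and 16 the lowest. Without KO line 3 the value was -0.37 (edgeR adjusted p = 0.0653), and with WT line 19 also left out it was -0.47 (edgeR adjusted p = 0.0221). The direction of Idi1 therefore rested on 1 library, and 17.7% of its 50-base stretches also occur in other genes.

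Of the 10 genes that make squalene and carry it to cholesterol, 8 were called higher (80.0%, beside 21.8% of all genes) and 0 lower. The median log2 fold change of these genes was 0.47. Their summed level was 758, 626 and 712 CPM in the WT lines and 1147, 959.9 and 1096 CPM in the lines labelled KO, a ratio of 1.53. Lss, which closes oxidosqualene into lanosterol, had the highest fold change of the 39 genes. It lies on chromosome 10 from 76531588 to 76557138 (GRCm38, as are the other positions given) and was at 62.3, 44.5 and 63.0 CPM and at 166, 149.9 and 178 CPM, or 56.6 ± 10.5 and 165 ± 14.1 CPM (SD, n = 3 lines each). Its log2 fold change was 1.54 (SE 0.15, edgeR adjusted p = 1.17e-04). The 2 steps before it moved less: Fdft1, squalene synthase, was at 53.3, 44.5 and 47.6 CPM and at 84.4, 82.3 and 99.8 CPM (log2 fold change 0.87, SE 0.12, edgeR adjusted p = 6.95e-04). Fdft1 shares 774 exonic bases with Ctsb on the opposite strand, and Ctsb was lower in the lines labelled KO, at 37.4 to 50.1 CPM against 121 to 167 CPM. Sqle, squalene epoxidase, was at 126, 109.8 and 113 CPM and at 174, 143 and 166 CPM (log2 fold change 0.47, SE 0.11, edgeR adjusted p = 0.0094). None of these 3 genes overlapped between genotypes.

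The steps after lanosterol were uneven. Tm7sf2, a sterol reductase, was at 36.3, 29.6 and 40.4 CPM and at 67.7, 59.7 and 71.0 CPM (log2 fold change 0.90, SE 0.14, edgeR adjusted p = 0.00111). Hsd17b7, which works in the removal of methyl groups, was at 55.5, 43.5 and 49.5 CPM and at 103, 73.2 and 81.1 CPM (log2 fold change 0.79, SE 0.15, edgeR adjusted p = 0.00337). Dhcr7, which reduces the last double bond of one branch, was at 118, 94.5 and 117 CPM and at 149, 146 and 158 CPM, with 0.46 on the log2 scale (SE 0.12, edgeR adjusted p = 0.012). All 3 separated the genotypes. Cyp51, the lanosterol demethylase, was not called: it was at 154, 133 and 144 CPM and at 192, 146 and 170.3 CPM (log2 fold change 0.24, SE 0.12, edgeR adjusted p = 0.155), so KO line 13 fell inside the WT range. It shares 166 exonic bases with Akap9 on the other strand. Sc5d, a sterol desaturase, was at 70.0, 62.3 and 71.3 CPM and at 110.2, 71.7 and 71.8 CPM (log2 fold change 0.32, SE 0.17, edgeR adjusted p = 0.173). Only KO line 3 stood clear of WT for Sc5d, and without it the value was 0.08 (edgeR adjusted p = 0.505).

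Nsdhl and Ebp are X-linked and gave calls that single lines decided. Nsdhl, a dehydrogenase of methyl group removal, was at 74.4, 57.0 and 59.8 CPM and at 91.1, 77.5 and 89.7 CPM (log2 fold change 0.43, SE 0.13, edgeR adjusted p = 0.0271). Its call was lost without WT line 8 (edgeR adjusted p = 0.106), WT line 19 (0.0906) or KO line 16 (0.0569). Ebp, a sterol isomerase, was at 8.15, 6.94 and 6.83 CPM and at 9.08, 9.98 and 11.2 CPM (log2 fold change 0.46, SE 0.15, edgeR adjusted p = 0.0353), and its edgeR adjusted p rose to between 0.0631 and 0.112 on leaving out any line but KO line 3. The lines were mixed in Xist, the X-inactivation RNA: it was at 15783, 18582 and 80.6 CPM of total counts in WT lines 3, 8 and 19 and at 19659, 3.39 and 1.69 in KO lines 3, 13 and 16. With Xist state as a covariate Nsdhl stayed called at 0.48 (edgeR adjusted p = 0.0161) and Ebp did not, at 0.44 (edgeR adjusted p = 0.0536).

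**Figure D2:**
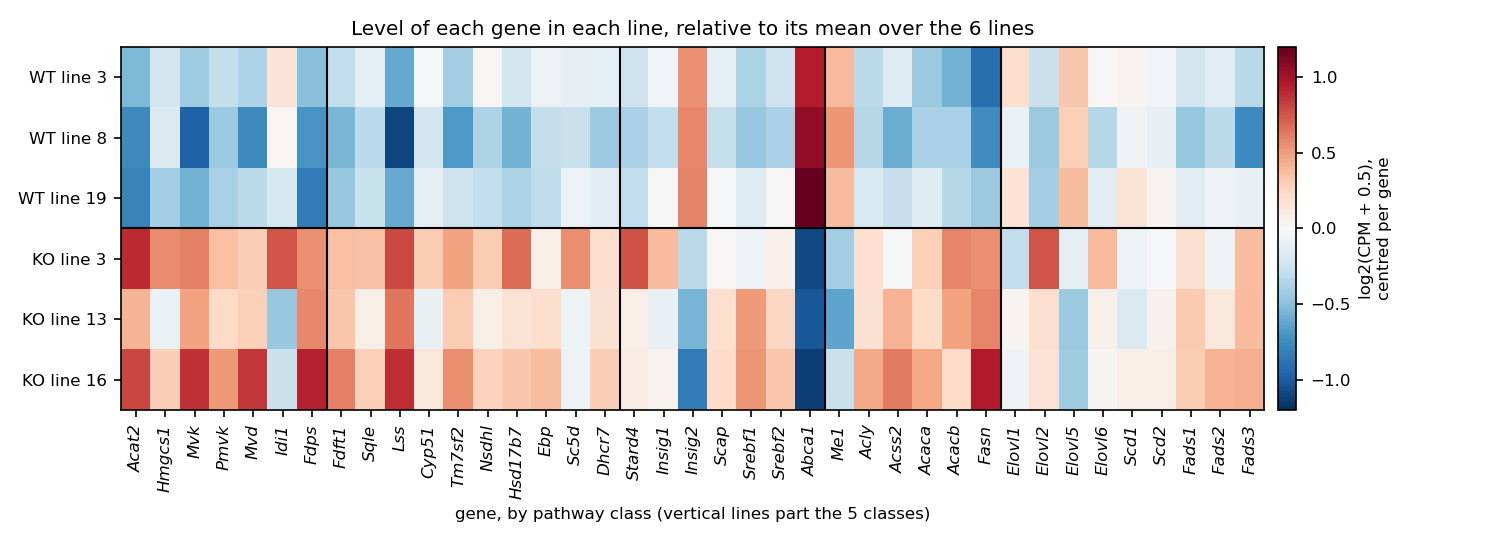
Level of each gene (x axis, in pathway order) in each line (y axis), as log2(CPM + 0.5) centred on the mean of the 6 lines, red above and blue below. KO line 13 is the lowest of the lines labelled KO for 15 of the 17 sterol synthesis genes. WT line 8 is the lowest of the WT lines for 28 of 39 genes, whether red or blue.

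The order of the lines within a genotype changed with the class. WT line 8 was the lowest WT line in 28 of the 39 genes, but among the 7 mevalonate genes it was lowest in 3 and WT line 19 in 4. KO line 13 was the lowest of its genotype in 15 of the 17 sterol synthesis genes, while KO line 16 was the highest in 9 and KO line 3 in 8. Among the 15 fatty acid genes KO line 3 was lowest in 7, KO line 13 in 5 and KO line 16 in 3. Summed over the 17 genes, the lines were at 1318, 1174 and 1204 CPM and at 2159.9, 1687 and 2039 CPM, or 1232 ± 75.7 and 1962 ± 245 CPM (SD, n = 3 lines each). The spread between the lines labelled KO was thus wider than that of WT, and the ranges still did not meet. Genes of a line share its library, so these orders describe libraries and not independent observations.

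Among the 7 genes that regulate SREBP or move sterol, 3 were called higher (42.9%) and 2 lower (28.6%). The shares of all genes were 21.8% and 20.4%. The median log2 fold change of the 7 genes was 0.28. Srebf1, whose SREBP products are tied chiefly to fatty acid genes, was at 277, 263 and 325 CPM and at 350.4, 516 and 521 CPM (log2 fold change 0.68, SE 0.17, edgeR adjusted p = 0.0104). KO line 3 was nearer to WT line 19 than to the other lines labelled KO. Srebf2, tied chiefly to sterol genes, was at 225, 204 and 268 CPM and at 279, 318 and 335 CPM (log2 fold change 0.42, SE 0.13, edgeR adjusted p = 0.0295). That call was lost without WT line 3 (edgeR adjusted p = 0.114), WT line 8 (0.112), KO line 13 (0.0871) or KO line 16 (0.0777). Scap was at 180.5, 161 and 193 CPM and at 197, 223 and 228 CPM (log2 fold change 0.28, SE 0.11, edgeR adjusted p = 0.0713), and without KO line 3 it was called, at 0.35 (edgeR adjusted p = 0.0107). With WT line 8 left out, 3 of the 7 genes were called instead of 5.

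Of the INSIG genes, Insig2 was called lower and Insig1 was not called. Insig1, itself known as an SREBP target, was at 177, 147 and 181 CPM and at 235, 170.0 and 187 CPM (log2 fold change 0.23, SE 0.14, edgeR adjusted p = 0.228). KO line 13 lay inside the WT range of Insig1. Insig2, known for its control apart from SREBP, was at 61.1, 62.3 and 63.0 CPM and at 33.2, 28.2 and 23 CPM, so that it fell by 1.14 on the log2 scale (SE 0.14, edgeR adjusted p = 3.46e-04). The WT lines lay within a narrow band for Insig2 and all lines labelled KO were below it. Insig2 lies on chromosome 1 from 121304353 to 121332589. Per kilobase of exon, the ratio of the Insig1 level to the Insig2 level was 3.25, 2.65 and 3.22 in the WT lines and 7.93, 6.77 and 9.15 in the lines labelled KO. The same ratio for Srebf2 over Srebf1 was 0.637, 0.608 and 0.648 and then 0.625, 0.483 and 0.505, so KO line 3 was at the WT ratio.

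Among the 39 genes, the lowest log2 fold change was that of a sterol transporter. Abca1, which exports cholesterol to lipoprotein particles and is a classic liver X receptor target, was at 153, 166 and 187 CPM and at 37.2, 38.8 and 35.7 CPM, or 169 ± 17.4 and 37.2 ± 1.56 CPM (SD, n = 3 lines each). It fell by 2.18 on the log2 scale (SE 0.11, edgeR adjusted p = 1.08e-05), and the value lay between -2.25 and -2.10 under every alternative tried. Abca1 lies on chromosome 4 from 53030787 to 53159895. By level per kilobase it went from rank 21 of the 39 genes in WT to rank 38. Stard4, a cytosolic sterol carrier, was at 46.4, 42.0 and 44.8 CPM and at 93.8, 58.2 and 58.6 CPM (log2 fold change 0.66, SE 0.18, edgeR adjusted p = 0.019). KO line 3 set much of that size: without it the value was 0.40 (edgeR adjusted p = 0.00409), and the call was lost without WT line 8 (edgeR adjusted p = 0.0701) or WT line 19 (0.0531).

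**Figure D3:**
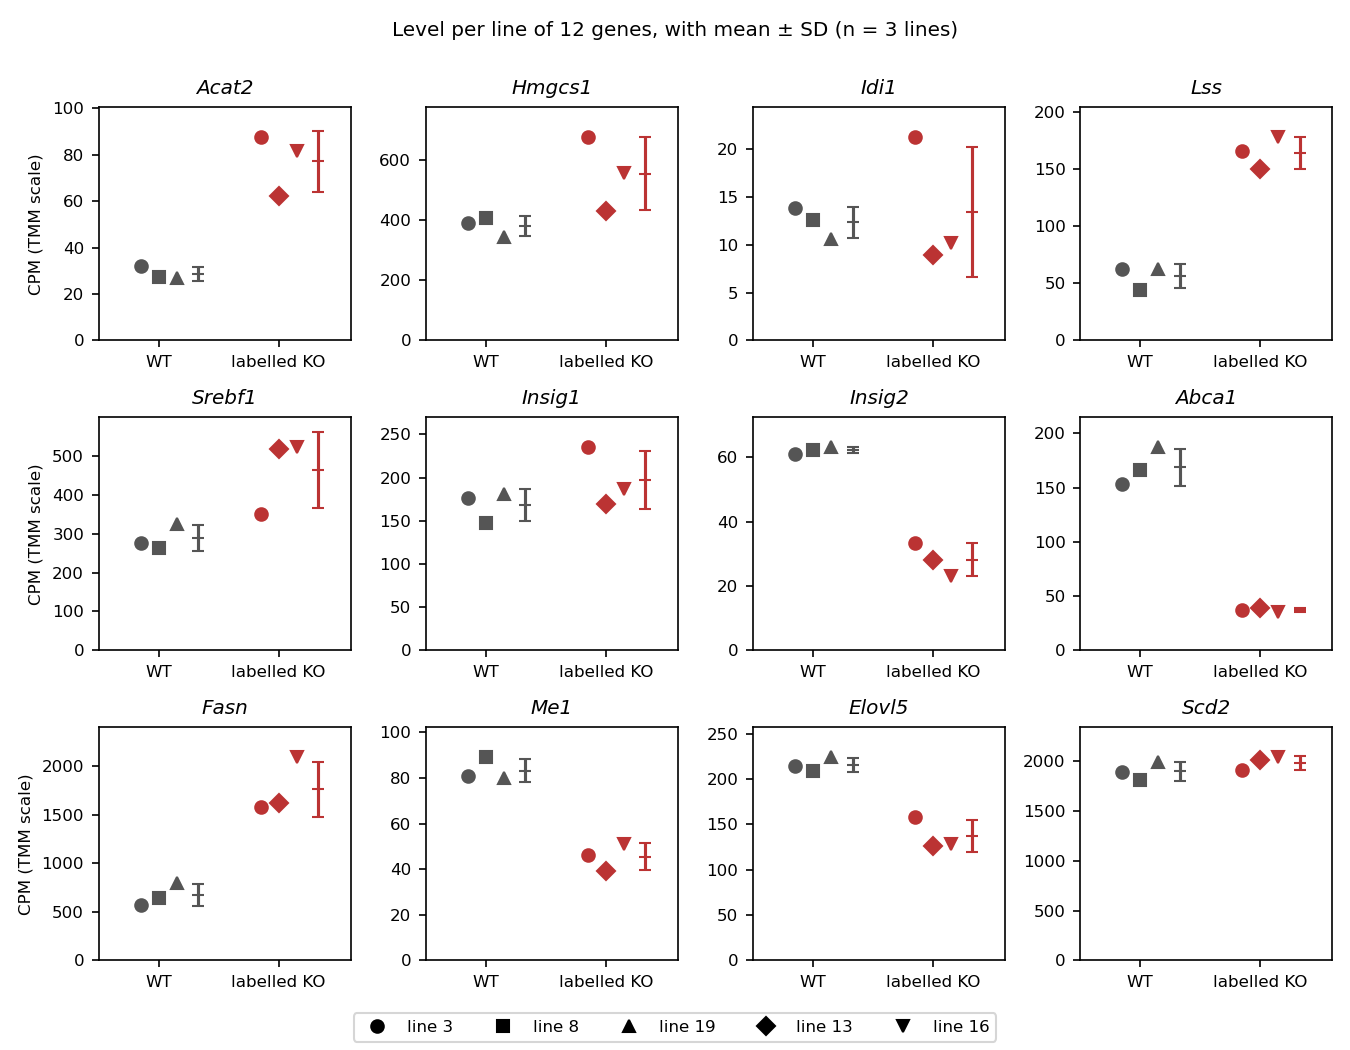
CPM on the TMM scale (y axes, each from 0) in each line for 12 of the genes, with marker shapes for lines and bars for mean ± SD of 3 lines. Abca1 and Insig2 lie lower and Lss and Fasn higher in every line labelled KO, while Idi1 and Scd2 overlap between the genotypes.

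All 6 genes that build the fatty acid chain were called, 5 higher and Me1 lower, beside 42.3% of all genes called. The median log2 fold change of the 6 genes was 0.67. Their summed level was 1162, 1222 and 1433 CPM and then 2358, 2397 and 3021 CPM, a ratio of 2.04, and most of it came from Fasn. Fasn, fatty acid synthase, lies on chromosome 11 from 120805846 to 120824547. It was at 575, 645 and 796 CPM and at 1582, 1620.4 and 2091 CPM, or 672 ± 113 and 1765 ± 283 CPM (SD, n = 3 lines each). The log2 fold change was 1.39 (SE 0.17, edgeR adjusted p = 3.27e-04). In both genotypes the line with the highest level, WT line 19 or KO line 16, stood well above the others. Per kilobase of exon, Fasn went from rank 4 of the 39 genes in WT (61.4 CPM per kb) to rank 2 (161 CPM per kb).

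The enzymes that feed Fasn with carbon rose as well. Acly, which makes cytosolic acetyl-CoA from citrate, was at 361, 353 and 395 CPM and at 517, 509 and 613 CPM (log2 fold change 0.57, SE 0.11, edgeR adjusted p = 0.00434). Acss2, which makes it from acetate, was at 56.3, 41.3 and 51.5 CPM and at 62.1, 83.9 and 96.7 CPM (log2 fold change 0.70, SE 0.18, edgeR adjusted p = 0.0126). KO line 3 lay close to WT for Acss2, whose call was lost without WT line 8 (edgeR adjusted p = 0.0540). Acaca, the acetyl-CoA carboxylase of the cytosol, was at 87.5, 90.8 and 108 CPM and at 145, 139 and 165 CPM (log2 fold change 0.65, SE 0.12, edgeR adjusted p = 0.00311). Acacb, the mitochondrial form known for curbing fatty acid oxidation, had the lowest level per kilobase of the 39 genes, and was at 2.01, 2.33 and 2.44 CPM and at 5.07, 4.69 and 3.86 CPM. Its log2 fold change was 1.01 (SE 0.19, edgeR adjusted p = 0.00346). Me1, malic enzyme, which supplies NADPH for lipid synthesis, went the other way, from 80.8, 89.0 and 80.0 CPM to 46.2, 39.4 and 51.0 CPM, and fell by 0.87 (log2, SE 0.12, edgeR adjusted p = 7.30e-04). The 3 lines labelled KO were all below WT for Me1.

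Elongases and desaturases were mixed. Of 9 genes, 3 were called higher and 1 lower, so the share called, 44.4%, was near the 42.3% of all genes, and the summed level was 2934, 2729 and 3066 CPM beside 3037, 3081 and 3164 CPM. Elovl2, an elongase of long polyunsaturated chains, was at 14.4, 12.6 and 13 CPM and at 29.7, 19.9 and 19.7 CPM (log2 fold change 0.79, SE 0.18, edgeR adjusted p = 0.00726). Elovl5, which acts on shorter polyunsaturated chains, was at 215, 209 and 224 CPM and at 158, 126 and 128 CPM, and fell by 0.66 on the log2 scale (SE 0.12, edgeR adjusted p = 0.00229). These 2 elongases thus separated the genotypes in opposite directions, and KO line 3 was the highest of its genotype for both. Elovl6, which lengthens saturated chains from palmitate, was at 185, 146 and 169 CPM and at 243, 194 and 189.8 CPM (log2 fold change 0.33, SE 0.14, edgeR adjusted p = 0.0826), and was called with Xist state as a covariate (0.37, edgeR adjusted p = 0.0429). Elovl1, of very long saturated chains, overlapped, at 38.2, 31.2 and 37.2 CPM and at 26.7, 33.6 and 32.0 CPM (log2 fold change -0.21, SE 0.13, edgeR adjusted p = 0.229).

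The stearoyl-CoA desaturases, which make monounsaturated fatty acids and are also known SREBP targets, overlapped between the genotypes. Scd2, the main form of the developing brain, was at 1896, 1807 and 1991 CPM and at 1908, 2010.2 and 2038 CPM (log2 fold change 0.06, SE 0.12, edgeR adjusted p = 0.692). Scd1 was at 227, 216 and 249 CPM and at 213, 197 and 233 CPM (log2 fold change -0.11, SE 0.11, edgeR adjusted p = 0.46). Per kilobase Scd2 ranked first of the 39 genes in both genotypes, at 347 and 363 CPM per kb, and was 7.16 to 7.48 times Scd1 in the WT lines and 7.83 to 9.13 times in the lines labelled KO. The pair lie 87590 bases apart on chromosome 19.

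The fatty acid desaturases sit together elsewhere on chromosome 19, with 2654 bases between Fads3 and Fads2 and 81141 between Fads2 and Fads1. Fads1, which makes arachidonic and eicosapentaenoic acid, was at 271, 231 and 289.8 CPM and at 361, 393 and 392 CPM (log2 fold change 0.53, SE 0.12, edgeR adjusted p = 0.00602). Fads3, known for desaturating sphingoid bases, was at 8.30, 6.03 and 9.92 CPM and at 13.8, 13.9 and 14.5 CPM (log2 fold change 0.80, SE 0.18, edgeR adjusted p = 0.00732). Fads2, the entry enzyme of the polyunsaturated pathway, was at 78.7, 69.8 and 83.5 CPM and at 84.1, 94.4 and 116 CPM (log2 fold change 0.34, SE 0.14, edgeR adjusted p = 0.075). KO line 3 was within 1 CPM of WT line 19 for Fads2, and without KO line 3 the gene was called, at 0.45 (edgeR adjusted p = 0.00525). All 3 lines labelled KO were above WT for each of the 3 genes.

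Set side by side, the shares called were 82.4% of 17 sterol synthesis genes, 71.4% of 7 regulators and transporters and 66.7% of 15 fatty acid genes. Of all genes tested, 42.3% were called, 21.8% higher and 20.4% lower. Sterol synthesis held 14 higher calls (82.4%) and 0 lower. The regulators held 3 (42.9%) and 2 (28.6%), and the fatty acid genes 8 (53.3%) and 2 (13.3%). Whether the classes differ was not tested. Median log2 fold changes were 0.76, 0.28 and 0.53 in the same order, and ratios of summed levels 1.59, 1.16 and 1.36. Single genes weigh heavily in such sums. Mean Fasn went from 672 to 1765 CPM, within a fatty acid sum of 4182 and 5686 CPM. Among the regulators and transporters, a rise of Srebf1 from 288 to 463 CPM met a fall of Abca1 from 169 to 37.2 CPM.

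Related genes outside the 39 gave other counts. The isoprenoid branch draws farnesyl diphosphate toward dolichol, ubiquinone and protein prenylation. Of 10 genes of this branch, 1 was called, beside 42.3% of all genes tested. Leaving out single lines gave 0 to 3 calls. The gene called with all lines kept was Nus1, a subunit of the dolichol enzyme. Nus1 was at 88.8, 82.1 and 85.5 CPM and at 74.1, 49.8 and 46.3 CPM. Its log2 fold change was -0.59 (SE 0.17, edgeR adjusted p = 0.0222). Of 17 fatty acid oxidation genes, 0 were called higher and 9 lower, which is 52.9%, beside 20.4% of all genes called lower. Their median log2 fold change was -0.38. The count called lower was 7 with no filter and 10 at a threshold of 0.10. It was 8 with upper-quartile factors, library size alone or a filter of 1 CPM in 3 libraries. Hadhb, the thiolase subunit of the mitochondrial trifunctional protein, was at 86.4, 87.0 and 65.8 CPM and at 35.2, 30.1 and 31.6 CPM (log2 fold change -1.30, SE 0.14, edgeR adjusted p = 1.63e-04). Ppara, a nuclear receptor of fatty acid oxidation, was at 12.1, 10.5 and 13 CPM and at 5.61, 6.93 and 6.22 CPM (log2 fold change -0.92, SE 0.15, edgeR adjusted p = 0.00165). Neither gene overlapped between the genotypes.

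Of 21 sterol handling genes, 19 were tested, with 5 called higher (26.3%) and 9 lower (47.4%) and a median of -0.35. Over all genes the shares were 21.8% and 20.4%. Osbp2, an oxysterol-binding protein, was at 6.29, 4.56 and 5.69 CPM and at 1.18, 1.39 and 1.33 CPM (log2 fold change -2.08, SE 0.21, edgeR adjusted p = 1.32e-04). Cyp46a1, which turns brain cholesterol into an oxysterol, was at 34.0, 25.7 and 32.2 CPM and at 11.9, 14.9 and 14.4 CPM (log2 fold change -1.16, SE 0.15, edgeR adjusted p = 4.52e-04). Soat1, which esterifies cholesterol, was at 92.7, 87.3 and 109.6 CPM and at 55.4, 44.0 and 40.8 CPM (log2 fold change -1.05, SE 0.15, edgeR adjusted p = 6.95e-04). For these 3 genes every line labelled KO was below WT. The higher count rested on the lines and the scaling: it was 2 without KO line 13 or KO line 16, 3 without any 1 of the WT lines, 6 without KO line 3, 3 with size factors of DESeq2, upper-quartile factors or library size alone, and 2 with Rn45s and Xist rows removed. The 5 called higher were Scarb1, a lipoprotein receptor, at 0.83, Lrp8, a lipoprotein and reelin receptor, at 0.64, Nr1h2, a liver X receptor, at 0.40, Stard3, a sterol carrier of endosomes, at 0.32, and Osbp, a sterol exchanger of the Golgi, at 0.27 on the log2 scale. Nr1h3, the other liver X receptor, was at 4.72, 5.22 and 5.69 CPM and at 2.24, 2.45 and 3.35 CPM and fell by 0.95 on the log2 scale (SE 0.20, edgeR adjusted p = 0.00594). It was picked after its value was seen. The proteases that cut SREBP gave 1 call: Mbtps2, X-linked, was at 56.8, 58.2 and 54.7 CPM and at 48.9, 30.3 and 24.2 CPM (log2 fold change -0.72, SE 0.22, edgeR adjusted p = 0.0293), and Mbtps1 had a log2 fold change of 0.10. The Mbtps2 row shares 2867 exonic bases with Yy2 on the same strand.

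Among 25 other genes of fatty acid and glycerolipid synthesis, 7 were called higher (28.0%) and 10 lower (40.0%), with a median of -0.17. The shares over all genes were 21.8% and 20.4%. Elovl3, an elongase, was at 2.08, 1.47 and 1.90 CPM and at 0.107, 0.254 and 0.129 CPM (log2 fold change -3.41, SE 0.37, edgeR adjusted p = 1.90e-04). The lines labelled KO held only 2, 6 and 3 counts of Elovl3, so the size of its fold change is uncertain. Thrsp, a lipogenic nuclear protein, was at 8.70, 7.34 and 7.53 CPM and at 1.6, 1.9 and 2.4 CPM (log2 fold change -1.99, SE 0.20, edgeR adjusted p = 1.24e-04). Its relative Mid1ip1, which promotes assembly of acetyl-CoA carboxylase, was at 38.8, 40.2 and 36.4 CPM and at 64.2, 54.4 and 71.6 CPM (log2 fold change 0.72, SE 0.12, edgeR adjusted p = 0.00197). The 2 related genes therefore separated the genotypes in opposite directions. Acsl3, an acyl-CoA synthetase, was at 183, 161 and 188 CPM and at 108, 77.4 and 80.9 CPM (log2 fold change -1.0, SE 0.15, edgeR adjusted p = 8.61e-04), and Acsl6, of the same family, had 0.89 (SE 0.14, edgeR adjusted p = 0.00138).

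**Figure D4:**
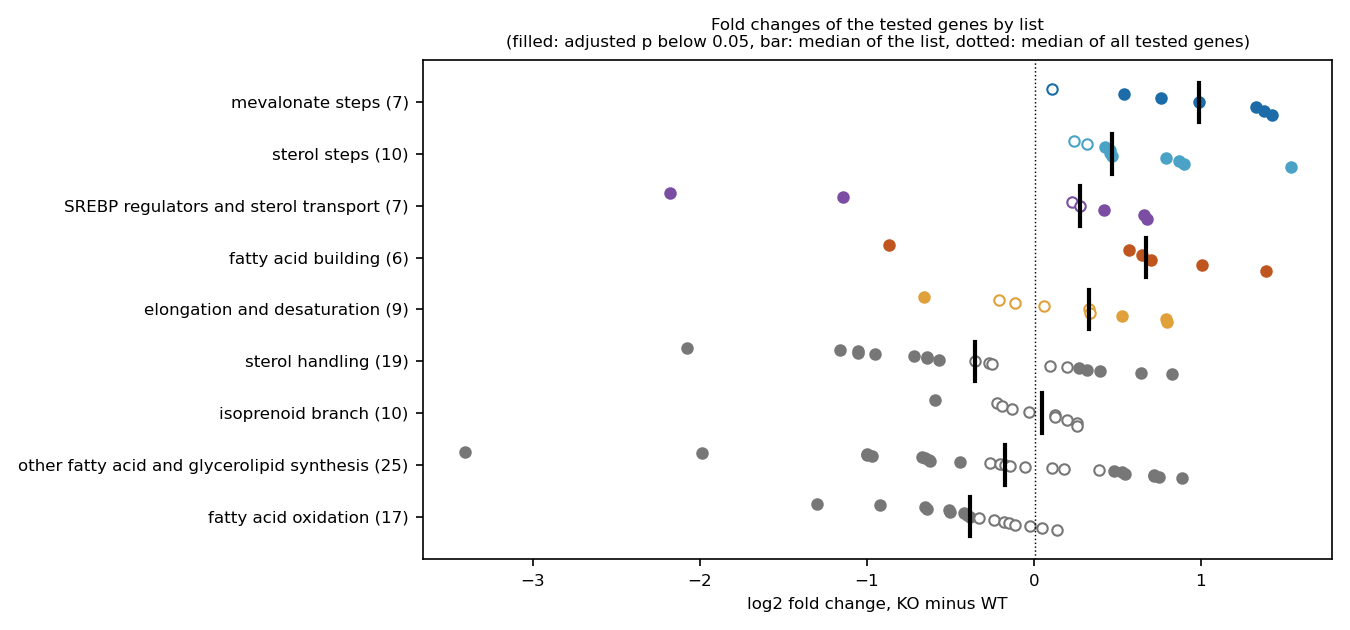
Log2 fold change (x axis) of each tested gene by list (y axis), with filled points for an adjusted p below 0.05, a bar for the median of each list and a dotted line for the median of all genes. The 17 genes of the sterol lists lie to the right of 0, with medians of 0.99 and 0.47, and 15 of the 17 fatty acid oxidation genes lie to the left of it, with a median of -0.38.

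Counting could affect several of these genes. Opposite-strand exons overlap 7 of the genes, and same-strand exons of a microRNA row overlap Scd2 by 61 bases, so their reads cannot be fully told apart. Apart from Fdft1, the longest of these stretches were 395 bases between Acss2 and Gss and 381 bases between Lss and 4930483K19Rik. Of the 39 genes, 7 shared 9% or more of their 50-base stretches with another gene, 32 shared under 5% and 18 shared 0. The share was 39.1% for Acat2, 30.4% for Acaca, 26.2% for Fdps and 22.9% for Me1. Because the RNA is nuclear, levels also hold transcripts that were still being made or kept in the nucleus, and cytoplasmic levels were not measured.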

How the data were processed

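Nuclear RNA was sequenced from 6 cultures, 3 labelled Fmr1 WT and 3 labelled Fmr1 KO. Raw, unscaled counts for 23337 gene symbols were deposited for each culture. The tools named, per the submitters' processing notes, were STAR, HTSeq 0.7.2, DESeq2 and cutadapt 1.14, and the build was mm10. What each tool did, the annotation and the strand setting are not stated in those sources, and without a strand setting the reads of overlapping genes on opposite strands cannot be told apart. Per the labels' protocols, nuclei were prepared with a commercial kit and RNA with TRIzol, and preparations with high U1 and low beta-actin signal were kept.

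Counts were fitted over the whole table with edgeR 4.0.16 in R 4.3.3: filterByExpr left 13925 genes, libraries were scaled by TMM, and genotype was tested two-sided in a robust quasi-likelihood fit over the 6 lines, without covariates. P-values were adjusted by Benjamini-Hochberg over all genes tested, with a threshold of 0.05, and the standard error (SE) was derived from the F statistic. The code was tested on simulated data. One count was worth 0.0373 to 0.0535 CPM. Levels between genes were compared per kilobase of merged exon in GENCODE mouse release M21 (GRCm38), which also gave coordinates and overlaps. Promoters were those of RefSeq for the same assembly. Shared sequence was the share of a gene's 50-base stretches that occur in transcripts of another gene.

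The members and lists, and the choice of tests, were made with earlier results of these data known, so no list is independent evidence of its direction. All 39 genes are named. From other lists, genes named were up to 4 with the smallest p, all of a count of 5 or fewer, and Nr1h3, Mbtps1, Mbtps2 and Mid1ip1, which were picked with their values in view. Alternatives were DESeq2 1.42.0 size factors and Wald test, upper-quartile factors, library size alone, limma-voom (limma 3.58.1), no filter or a filter of 1 CPM in 3 libraries, a threshold of 0.10, an Xist covariate (total-count CPM of at least 1000), removal of Rn45s and Xist rows, leaving out each line, and leaving out WT line 19 with KO line 3.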

Additional observations from a re-analysis of the deposited data

How the results depend on the processing

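Over 663 combinations of a gene among the 39 and an alternative, 631 kept direction and side of the threshold, 21 lost the call, 8 gained one and 3 changed sign. Sign changes were counted apart from calls gained. Idi1 without both WT line 19 and KO line 3 also gained a call but is counted as a sign change. The sign changes were all of Idi1: -0.02 with limma-voom (adjusted p = 0.965), -0.37 without KO line 3 (edgeR adjusted p = 0.0653) and -0.47 with WT line 19 also left out (edgeR adjusted p = 0.0221), while leaving out single lines gave -0.37 to 0.34. Genes called among the 39 numbered 29, and 23 to 31 when single lines were left out. Calls among the 7 regulators and transporters numbered 5, and 3 to 6 when single lines were left out. Their summed level had a ratio of 1.16, and 1.27 without WT line 19 and KO line 3. The isoprenoid branch had 1 call, and 2 at a threshold of 0.10, with the Xist covariate, and without WT line 19 and KO line 3, with 0 to 3 on leaving out single lines. The cause was not tested. Ebp lost its call by library size alone (edgeR adjusted p = 0.0511), and Ebp (0.0571) and Srebf2 (0.0510) lost theirs when Rn45s and Xist rows were removed (edgeR adjusted p). Ranked by CPM instead of per kilobase, Fasn was second in WT, Hmgcs1 3, Acly 4 and Elovl5 9. Scaling moved the median of all genes by under 0.1 on the log2 scale. No paired analysis was possible because the genotypes share only the number 3. Acacb, at 2.01 to 5.07 CPM, rested on the fewest counts of the 39 genes.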
